A study of Mus musculus with 38 samples.

Results

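A set of 35 genes of osteoblasts, bone and connective tissue matrix, and the stromal cells that house blood stem cells was followed in mouse bone marrow. The genes were chosen by name, and the Ensembl identifiers in the deposited tables were mapped to them; all 35 were listed among 47729 genes in the whole marrow tables and 46679 in the tables of sorted cells. The mice were female C57BL/6 of 6 to 7 weeks, left untreated or given zoledronic acid (ZA), a bisphosphonate that binds bone mineral and disables osteoclasts, granulocyte colony-stimulating factor (G-CSF), a cytokine used to release blood stem cells from marrow, or both. ZA was given at 100 µg per kg into the peritoneum, and recombinant human G-CSF at 50 µg per kg on each of 3 days, starting 2 days after ZA where both were given. RNA-seq of whole marrow covered 2 untreated, 2 ZA, 3 G-CSF and 2 combined libraries; the labels number them as biological replicates and do not say how many animals each holds. A further table holds cells sorted for CD115, the receptor for macrophage colony-stimulating factor, after removal of cells with TER119, CD45R, CD11b, Ly-6G/Ly-6C or CD3 on their surface. Its run 1 covered 1 untreated, 1 ZA, 3 G-CSF and 3 combined libraries; these cells are called precursors below.

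Osteoblasts secrete type I collagen and a set of calcium-binding proteins, and once buried in bone they become osteocytes. Around the marrow vessels, reticular stromal cells that express the leptin receptor make the chemokine CXCL12 and stem cell factor, which retain and maintain blood stem cells, and G-CSF is known to lower CXCL12 and to suppress osteoblasts in mouse marrow. Both cell kinds are rare in flushed marrow, so their transcripts are a small share of whole marrow RNA, and in such bulk samples more cells of a type cannot be told apart from more RNA per cell.

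Levels are given as CPM, counts relative to the library's total after TMM scaling for composition, a unit that depends on transcript length and serves to compare 1 gene between libraries, and as TPM, the transcript share corrected for length, where genes are compared with each other. Changes were tested with edgeR's quasi-likelihood test over all genes that passed a filter on low counts, and a gene is said to have risen or fallen where its Benjamini-Hochberg adjusted p was under 0.05. In whole marrow 30 of the 35 genes passed the filter; Dmp1, Mepe, Sost, Tnfsf11 and Tnfrsf11b did not. Total counts, rounded, were 6240000 to 16150000 in whole marrow and 21050000 to 33190000 in precursors, and 3 counts, the most that a count of 0 allows, amounted to 0.174 to 0.679 CPM and 0.0790 to 0.126 CPM. The markers listed for the gate matched the label of the precursors: Csf1r, which encodes CD115, lay between 403.7 and 471 CPM against 95.04 to 171 CPM in run 1 whole marrow, and the summed level of 13 macrophage genes was 104 to 132 CPM against 860.0 to 1230.4 CPM. Ly6c2, whose product is among the antigens sorted out, nevertheless reached 2038 CPM in run 1 libraries. Within whole marrow, 50 genes reached at least 1 TPM in the 5 G-CSF and combined libraries while the untreated and ZA libraries stayed at 0.1 TPM or below, and 11 genes did the opposite, so any other difference between these mice cannot be told apart from G-CSF.

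Before the comparisons, 2 whole marrow libraries need naming. In untreated replicate 1 small RNAs took 39.95% of TPM, against 7.97 to 15.2% in the other 8 marrow libraries, and its TMM factor was the lowest, 0.709. Leaving out either untreated library leaves 1 in that group, so for the set only the size of the changes is given here. Where a call is said below to be lost without an untreated library, that fit had the same limit. Without untreated replicate 1 the median log2 change of the set was 1.24 for G-CSF and 1.11 for the combined treatment against untreated. Without untreated replicate 2 these medians were 0.84 and 0.79. ZA replicate 3 carried far more of these transcripts than ZA replicate 2: Cxcl12 was at 460.1 CPM in replicate 3 and 74.6 CPM in replicate 2. The ratio of replicate 3 to replicate 2 had a median of 3.23 over the 30 genes (range 0.626 to 23.0) and 0.978 over all 14737 genes tested. It was at least 2 for 22 of the 30 genes, or 73.3%, where 11.6% of all genes tested reached that ratio. Results that rest on the ZA group, or on its spread, are therefore given with and without each of its libraries.

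**Figure D1:**
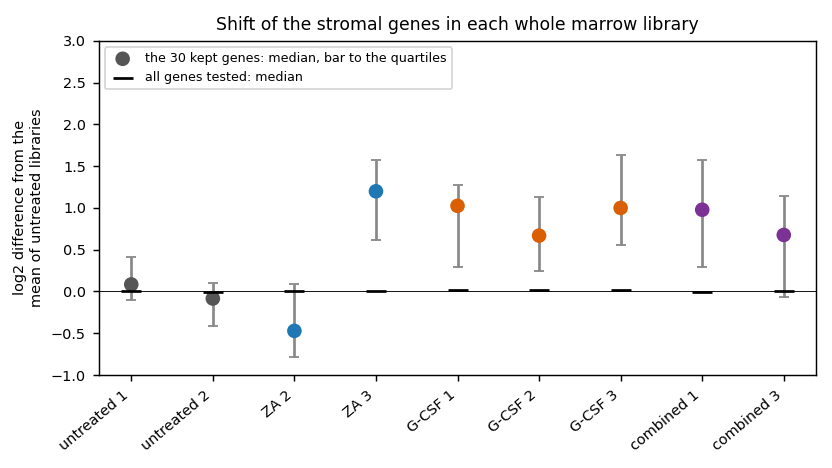
Median log2 difference of the 30 genes from the mean of the untreated libraries (y axis, CPM + 0.5) in each of the 9 whole marrow libraries (x axis); bars run from the lower to the upper quartile of the genes and are not errors, and black dashes give the median of all genes tested. ZA replicate 2 sits at -0.47, below the untreated libraries, while ZA replicate 3 at 1.20 sits above the G-CSF and combined libraries, which lie between 0.67 and 1.02.

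The promoter sequences that RefSeq gives for mouse build GRCm38.p6 are shown for 4 genes: Runx2 and Serpinf1, which stand apart from the rest in precursors, and Bglap and Spp1, which encode mineralised matrix proteins. Each window runs from 250 bases before to 50 bases after an annotated start, 5′ to 3′ on the strand of the gene, and capitals mark the RUNX core hexamer TGTGGT or its reverse complement ACCACA. The windows are chr17:44814578-44814877 (-) for Runx2, chr11:75422574-75422873 (-) for Serpinf1, chr3:88384417-88384716 (-) for Bglap and chr5:104434861-104435160 (+) for Spp1.

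Runx2: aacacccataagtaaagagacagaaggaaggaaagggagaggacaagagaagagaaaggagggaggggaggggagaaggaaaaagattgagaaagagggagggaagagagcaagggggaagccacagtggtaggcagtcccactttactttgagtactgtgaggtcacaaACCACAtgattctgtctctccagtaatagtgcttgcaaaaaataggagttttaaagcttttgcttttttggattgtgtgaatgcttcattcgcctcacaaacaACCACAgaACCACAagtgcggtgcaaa
Serpinf1: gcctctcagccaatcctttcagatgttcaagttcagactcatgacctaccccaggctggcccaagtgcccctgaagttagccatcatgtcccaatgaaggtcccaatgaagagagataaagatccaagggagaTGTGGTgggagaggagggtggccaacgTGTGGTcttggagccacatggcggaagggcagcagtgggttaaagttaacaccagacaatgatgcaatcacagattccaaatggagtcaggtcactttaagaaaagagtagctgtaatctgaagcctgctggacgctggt
Bglap: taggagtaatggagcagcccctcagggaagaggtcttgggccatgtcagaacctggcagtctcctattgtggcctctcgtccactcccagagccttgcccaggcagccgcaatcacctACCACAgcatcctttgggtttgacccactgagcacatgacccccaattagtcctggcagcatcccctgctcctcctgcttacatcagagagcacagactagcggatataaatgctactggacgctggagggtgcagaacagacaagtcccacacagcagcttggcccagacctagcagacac
Spp1: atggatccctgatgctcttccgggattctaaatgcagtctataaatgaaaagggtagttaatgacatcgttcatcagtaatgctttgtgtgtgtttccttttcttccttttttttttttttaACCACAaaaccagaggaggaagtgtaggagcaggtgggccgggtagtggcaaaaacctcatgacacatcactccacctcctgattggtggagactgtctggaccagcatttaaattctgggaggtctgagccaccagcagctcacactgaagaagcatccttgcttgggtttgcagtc

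The Runx2 window held 3 matches, at positions -80, 24 and 32 from the start, and the Serpinf1 window held 2, at -117 and -90. Bglap had 1 match at -132 and Spp1 had 1 at -128. Of the 35 genes 24 had a window that was counted, 29 windows in all. Any window on chromosome 18, where Pdgfrb lies, was left out for the set but not for the count over all windows. Of the set's windows 7, or 24.1%, held the hexamer on either strand, against 5506 of 32851 windows of the same length, or 16.8%. A match describes letters, and no binding was measured in these data.

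Per length, Cxcl12 was the most abundant of the 35 transcripts in whole marrow, with a median of 63.8 TPM over the 9 libraries (8.89 to 88.0). The lowest TPM of Cxcl12, Vcam1 and Sparc was that of untreated replicate 1. Vcam1, an adhesion molecule of stromal and endothelial cells and of marrow macrophages, came next at 26.8 TPM (9.26 to 37.3), and Sparc, a collagen-binding glycoprotein of bone that platelets also carry, at 17.9 TPM (3.69 to 24.5). These ranges overlapped, and so did those of Bgn at 10.1 TPM, Bglap at 9.68 TPM, Igfbp5 at 8.88 TPM and Col1a2 at 7.62 TPM. At the other end, Mepe and Sost, made by osteocytes, and Tnfrsf11b, which encodes the RANKL decoy osteoprotegerin, had a median of 0 TPM.

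**Figure D2:**
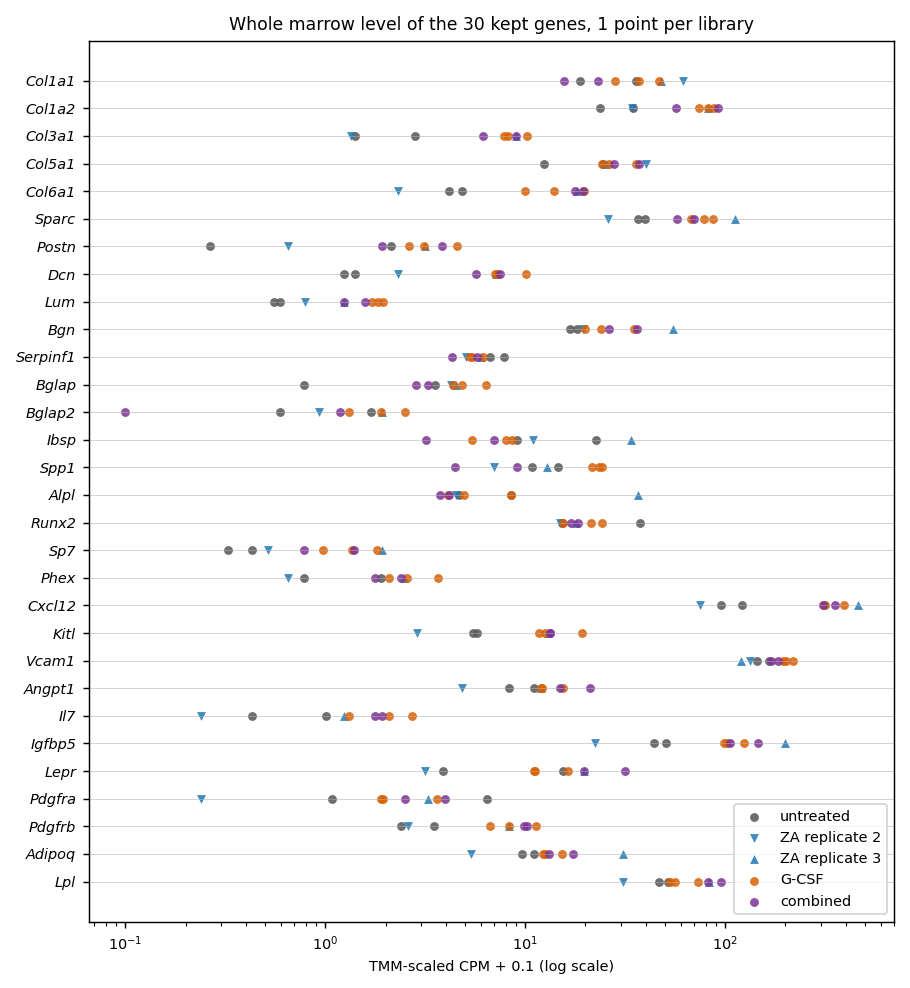
Level of each of the 30 genes (y axis) in the 9 whole marrow libraries (x axis, CPM + 0.1, log scale), 1 point per library with no error bars. For Cxcl12, Igfbp5, Col6a1 and Kitl the untreated points and ZA replicate 2 lie to the left and ZA replicate 3, G-CSF and combined points to the right; Ibsp, Alpl and Spp1 have other orders.

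Among the collagens, 1 of 5 rose with G-CSF. Col1a2, the second chain of type I collagen, measured 23.5 and 34.5 CPM in the untreated libraries, 33.97 and 82.2 in ZA replicates 2 and 3, 81.9, 73.8 and 88.04 with G-CSF, and 91.7 and 56.4 with the combined treatment. All 3 G-CSF libraries and both combined libraries exceeded the untreated ones, and ZA replicate 3 lay among them. The log2 difference of G-CSF from untreated was 1.48 ± 0.38 (SE; edgeR, adjusted p = 0.0389), and that of the combined treatment 1.35 ± 0.41 (SE; edgeR, adjusted p = 0.0821). The call with G-CSF was lost without either untreated library or any 1 G-CSF library (adjusted p from 0.0749 to 0.153).

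Col1a1, which encodes the partner chain of type I collagen, did not follow Col1a2. It measured 35.8 and 18.6 CPM in the untreated libraries, 61.6 and 47.8 in ZA replicates 2 and 3, 36.9, 27.98 and 46.7 with G-CSF, and 22.9 and 15.5 with the combined treatment. Both ZA libraries were above both untreated and both combined libraries, and the combined libraries were below all 3 G-CSF libraries. Col1a1 fell in the combined group against ZA, by -1.51 ± 0.35 (SE; edgeR, adjusted p = 0.0475), with a difference of -0.95 ± 0.33 (SE; edgeR, adjusted p = 0.381) against G-CSF. The fall against ZA was lost on both TPM scales and without either ZA library, either combined library or G-CSF replicate 1 or 2 (adjusted p over all alternatives 1.43e-06 to 0.291).

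Col6a1, a chain of the beaded filament collagen VI, measured 4.08 and 4.74 CPM in the untreated libraries, 2.21 and 18.01 in ZA replicates 2 and 3, 13.8, 9.91 and 19.6 with G-CSF, and 19.2 and 17.6 with the combined treatment. Every library given G-CSF was above every untreated library, and ZA replicates 2 and 3 lay on opposite sides of the untreated pair. The difference of G-CSF from untreated was 1.70 ± 0.73 (SE; edgeR, adjusted p = 0.166). Col3a1, of the fibrillar collagen of soft tissue, had the same order with lower levels, 2.72 and 1.31 CPM in the untreated libraries, 1.24 and 8.84 in ZA replicates 2 and 3, 7.71, 8.11 and 10.1 with G-CSF, and 6.02 and 8.90 with the combined treatment, and a difference of 2.13 ± 0.73 (SE; edgeR, adjusted p = 0.0898). Col5a1, a collagen that sets fibril width, ran from 12.3 to 40.2 CPM, and its G-CSF and untreated libraries overlapped; 2 transcripts of the opposite strand overlap its gene, and whether the counts kept strand is not stated.

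The small proteoglycan decorin rose with both treatments that held G-CSF. Dcn, whose product binds collagen fibrils, measured 1.13 and 1.31 CPM in the untreated libraries, 2.21 and 7.02 in ZA replicates 2 and 3, 10.02, 6.95 and 7.09 with G-CSF, and 7.40 and 5.59 with the combined treatment. The untreated libraries were the lowest, ZA replicate 2 came next, and ZA replicate 3 lay among the libraries given G-CSF. Dcn rose by 2.69 ± 0.55 (SE; edgeR, adjusted p = 0.0141) with G-CSF and by 2.39 ± 0.57 (SE; edgeR, adjusted p = 0.0367) with the combined treatment. The first call was lost without untreated replicate 1 (edgeR, adjusted p = 0.0626) or replicate 2 (0.0883), and the second without any 1 untreated or combined library or without G-CSF replicate 1 or 2 (0.0507 to 0.175). Lum, the related proteoglycan lumican, whose gene lies on the same chromosome 10, was at 0.453 and 0.491 CPM in untreated marrow. It was at 0.690 and 1.13 CPM in ZA replicates 2 and 3 and at 1.14 to 1.83 CPM in the 5 libraries given G-CSF. G-CSF differed from untreated by 1.84 ± 0.60 (SE; edgeR, adjusted p = 0.077).

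Sparc measured 39.6 and 36.6 CPM in the untreated libraries, 25.96 and 112 in ZA replicates 2 and 3, 78.6, 67.5 and 86.5 with G-CSF, and 70.04 and 57.4 with the combined treatment. ZA replicate 3 was the highest library and replicate 2 the lowest, and the difference of G-CSF from untreated was 1.02 ± 0.50 (SE; edgeR, adjusted p = 0.211). Bgn, the proteoglycan biglycan of bone and vessel wall, measured 18.1 and 16.7 CPM in the untreated libraries, 19.3 and 54.8 in ZA replicates 2 and 3, 19.8, 23.7 and 34.8 with G-CSF, and 36.2 and 26.2 with the combined treatment, and only ZA replicate 3 stood well above the others. Postn, which encodes the periosteal protein periostin, lay between 0.164 and 4.44 CPM. Serpinf1, which encodes pigment epithelium-derived factor, an antiangiogenic serpin made by osteoblasts and other cells, measured 7.70 and 6.54 CPM in the untreated libraries, 4.97 and 5.89 in ZA replicates 2 and 3, 6.07, 5.33 and 5.20 with G-CSF, and 5.62 and 4.22 with the combined treatment. All 7 treated libraries were below both untreated ones, and G-CSF differed from untreated by -0.36 ± 0.28 (SE; edgeR, adjusted p = 0.425).

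The mineralised matrix genes did not share 1 pattern. Ibsp, which encodes bone sialoprotein, measured 22.4 and 8.99 CPM in the untreated libraries, 10.8 and 33.5 in ZA replicates 2 and 3, 8.48, 7.88 and 5.30 with G-CSF, and 6.91 and 3.08 with the combined treatment. All 5 libraries given G-CSF were below all 4 without it, and ZA replicate 3 was the highest. The mean of the G-CSF and combined groups was below that of the untreated and ZA groups by -1.62 ± 0.42 (SE; edgeR, adjusted p = 0.0346), while G-CSF against untreated alone gave -1.10 ± 0.56 (SE; edgeR, adjusted p = 0.229). The call was lost on the TPM scale and without untreated replicate 1, ZA replicate 3 or any 1 library given G-CSF (adjusted p over all alternatives 1.82e-09 to 0.160).

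Spp1, which encodes osteopontin, a protein of osteoblasts, osteoclasts and macrophages, measured 10.6 and 14.4 CPM in the untreated libraries, 6.90 and 12.8 in ZA replicates 2 and 3, 24.2, 21.4 and 23.3 with G-CSF, and 8.98 and 4.34 with the combined treatment. The 3 G-CSF libraries were above all 6 others, and both combined libraries were below both untreated ones. The combined treatment differed from G-CSF by -1.78 ± 0.36 (SE; edgeR, adjusted p = 0.214), a call made by DESeq2 (adjusted p = 0.00235). Ctsk, the cathepsin of osteoclasts and no member of the set, was also highest in the 3 G-CSF libraries, at 16.1 to 22.5 CPM. It lay between 3.11 and 4.08 CPM in untreated, 3.45 and 10.2 CPM in ZA, and 2.28 and 3.16 CPM in combined marrow, where the combined and untreated libraries overlapped. Ctsk rose with G-CSF by 2.40 ± 0.46 (SE; edgeR, adjusted p = 0.0110), the only call among 6 osteoclast markers tested. The 10 osteoclast markers listed summed to 883 to 1184 CPM in untreated, 1254 to 1355 in ZA, 1114 to 1341 in G-CSF and 988 to 1090 in combined marrow, without that separation. Mmp9 made up most of such a sum: it averaged 1283 CPM in run 1 marrow, where the 10 markers summed to 1495 to 1761 CPM. The sum therefore cannot show whether the less abundant markers separated. Any part of osteoclast RNA in the Spp1 values was not tested.

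Osteocalcin, the vitamin K dependent protein of bone mineral, is encoded by Bglap and the adjacent copy Bglap2. In GENCODE vM21 (mm10) Bglap lies at chr3:88383501-88384464 and Bglap2 at chr3:88377736-88378699, both on the minus strand, and their main transcripts were identical at 434 of 440 aligned bases (98.6%). The division of reads between them is therefore uncertain, and they were also summed. Another copy, Bglap3, was identical to Bglap at 423 of 440 bases (96.1%) and to Bglap2 at 97.7% of aligned bases, was counted at 0.138 to 1.59 CPM, and is not in the sum. The sum was 2.26 and 3.92 CPM in untreated, 4.97 and 6.23 CPM in ZA, 7.13, 5.45 and 8.04 CPM in G-CSF, and 4.24 and 2.74 CPM in combined marrow. The G-CSF libraries were above both untreated ones and of the combined libraries 1 was; Bglap alone differed by 1.24 ± 0.54 (SE; edgeR, adjusted p = 0.165) with G-CSF. Dmp1 reached at most 1.10 CPM, and Mepe was counted in G-CSF replicate 1 alone, at 0.0963 CPM; with Ibsp and Spp1 these genes form 1 cluster on chromosome 5, from 104202613 to 104441050.

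Of the osteoblast enzymes and transcription factors, edgeR called none in any marrow comparison with all libraries. Alpl, the alkaline phosphatase that frees phosphate for mineral, measured 8.38 and 4.58 CPM in the untreated libraries, 4.42 and 36.6 in ZA replicates 2 and 3, 4.82, 4.00 and 8.42 with G-CSF, and 4.04 and 3.65 with the combined treatment. ZA replicate 3 was far above every other library, and the G-CSF libraries overlapped the untreated ones (-0.17 ± 0.77 (SE; edgeR, adjusted p = 0.909)). Runx2, the master regulator of the osteoblast lineage, measured 15.2 and 37.4 CPM in the untreated libraries, 14.8 and 17.9 in ZA replicates 2 and 3, 15.3, 21.1 and 24.2 with G-CSF, and 16.8 and 18.3 with the combined treatment, and untreated replicate 2 stood above the rest. Sp7, which encodes osterix, was at 0.226 and 0.327 CPM in untreated marrow and 0.685 to 1.70 CPM over the 5 G-CSF and combined libraries. In ZA replicates 2 and 3 Sp7 was at 0.414 and 1.81 CPM, the second being the highest of all. Phex, an enzyme that controls phosphate, was at 0.552 to 3.56 CPM over all libraries.

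The genes by which bone cells steer osteoclasts had few counts. Tnfsf11, which encodes RANKL, the cytokine that drives osteoclast formation, ran from 0.164 to 1.59 CPM, highest in ZA replicate 3. Tnfrsf11b had counts in 3 of 9 libraries, at most 0.226 CPM, and Sost, the Wnt inhibitor sclerostin, in 1, at 0.0963 CPM. These 3 genes did not pass the filter and were not tested.

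The niche factors were led by Cxcl12. This chemokine gene, at chr6:117168535-117181367 in mm10, measured 121 and 94.9 CPM in the untreated libraries, 74.6 and 460.1 in ZA replicates 2 and 3, 310.3, 316 and 393 with G-CSF, and 354 and 309.7 with the combined treatment. Every library given G-CSF was above every untreated library and ZA replicate 2, and ZA replicate 3 was the highest of all. The difference from untreated was 1.66 ± 0.64 (SE; edgeR, adjusted p = 0.137) with G-CSF, 1.62 ± 0.68 (SE; edgeR, adjusted p = 0.194) with the combined treatment and 1.31 ± 0.68 (SE; edgeR, adjusted p = 0.564) with ZA, none of them called. Leaving out either ZA library called both of the first: without ZA replicate 3 the G-CSF value was 1.66 ± 0.19 (SE; edgeR, adjusted p = 0.00140), and without ZA replicate 2 it was 1.66 ± 0.19 (edgeR, adjusted p = 0.00137).

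Igfbp5, a binding protein for insulin-like growth factors and a stromal product, measured 50.3 and 44.2 CPM in the untreated libraries, 22.2 and 199 in ZA replicates 2 and 3, 98.4, 101 and 124 with G-CSF, and 146 and 105 with the combined treatment. ZA replicate 3 was again the highest and ZA replicate 2 the lowest library, and the difference of G-CSF from untreated was 1.19 ± 0.75 (SE; edgeR, adjusted p = 0.335). Kitl, stem cell factor, measured 5.66 and 5.40 CPM in the untreated libraries, 2.76 and 12.9 in ZA replicates 2 and 3, 11.6, 12.4 and 19.1 with G-CSF, and 13.1 and 13.2 with the combined treatment. All 5 libraries given G-CSF were above both untreated ones, with a difference of 1.37 ± 0.55 (SE; edgeR, adjusted p = 0.134) for G-CSF. Without ZA replicate 3 the difference of G-CSF from untreated was 1.20 ± 0.20 (SE) for Igfbp5 and 1.37 ± 0.30 (SE) for Kitl. In that fit it was 1.03 ± 0.18 (SE) for Sparc and 1.70 ± 0.34 (SE) for Col6a1. For Col3a1 it was 2.13 ± 0.41 (SE) and for Pdgfrb 1.62 ± 0.35 (SE). Without ZA replicate 2 Igfbp5 differed by 1.20 ± 0.20 (SE) and Kitl by 1.37 ± 0.29 (SE).

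Vcam1 was less variable. It measured 165 and 144 CPM in the untreated libraries, 133 and 119.7 in ZA replicates 2 and 3, 195, 201.1 and 218 with G-CSF, and 183 and 169 with the combined treatment, and all 5 libraries given G-CSF were above all 4 others. Vcam1 rose by 0.45 ± 0.10 (SE; edgeR, adjusted p = 0.0188) between the groups without and with G-CSF. The call was lost without ZA replicate 3, untreated replicate 2 or combined replicate 1, with adjusted p up to 0.0864. Angpt1, the vessel-stabilising angiopoietin, was at 8.15 and 10.96 CPM in untreated marrow and 4.70 and 11.9 CPM in ZA replicates 2 and 3. Over the 5 G-CSF and combined libraries it was at 11.9 to 21.01 CPM. Angpt1 differed by 0.78 ± 0.27 (SE; edgeR, adjusted p = 0.0922) between the groups without and with G-CSF. Il7, the growth factor of lymphoid precursors, ranged from 0.138 to 2.601 CPM; antisense transcripts overlap Vcam1, Angpt1, Il7 and Pdgfra.

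Among the receptors that mark stromal cells, 1 of 3 rose. Pdgfrb, the platelet-derived growth factor receptor of pericytes, measured 3.40 and 2.29 CPM in the untreated libraries, 2.49 and 8.16 in ZA replicates 2 and 3, 6.55, 8.17 and 11.3 with G-CSF, and 9.77 and 10.04 with the combined treatment. All 5 libraries given G-CSF were above the untreated ones, ZA replicate 3 lay among them, and Pdgfrb rose by 1.25 ± 0.35 (SE; edgeR, adjusted p = 0.0437) between the groups without and with G-CSF. That call was lost in 8 of 9 fits that left out 1 library, all but the fit without ZA replicate 3. Lepr, the leptin receptor, measured 15.4 and 3.76 CPM in the untreated libraries, 3.04 and 19.5 in ZA replicates 2 and 3, 10.98, 11.1 and 16.2 with G-CSF, and 31.5 and 19.6 with the combined treatment, with untreated replicate 1 inside the range of the treated libraries. Pdgfra, the partner receptor of mesenchymal progenitors, measured 6.34 and 0.981 CPM in the untreated libraries, 0.138 and 3.17 in ZA replicates 2 and 3, 1.83, 1.80 and 3.50 with G-CSF, and 3.85 and 2.40 with the combined treatment, and untreated replicate 1 was the highest.

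With all libraries, edgeR made no call for the genes of adipocytes in any marrow comparison. Adipoq, the hormone adiponectin, measured 9.51 and 10.96 CPM in the untreated libraries, 5.25 and 30.7 in ZA replicates 2 and 3, 12.4, 12.2 and 15.1 with G-CSF, and 17.3 and 13.01 with the combined treatment. Lpl, the lipase that frees fatty acids from lipoproteins and is also made by muscle and macrophages, measured 51.9 and 46.6 CPM in the untreated libraries, 30.8 and 82.7 in ZA replicates 2 and 3, 53.1, 56.1 and 73.1 with G-CSF, and 94.9 and 81.8 with the combined treatment. In both genes ZA replicate 2 was the lowest library and every library given G-CSF was above both untreated ones. G-CSF differed from untreated by 0.37 ± 0.58 (SE; edgeR, adjusted p = 0.72) for Adipoq. For Lpl the difference was 0.30 ± 0.35 (SE; edgeR, adjusted p = 0.608). The combined treatment differed from untreated by 0.84 ± 0.21 (SE) for Lpl, without ZA replicate 2 as well as without replicate 3. Between groups without and with G-CSF, leaving out ZA replicate 3 gave 0.91 ± 0.17 (SE) for Lpl and 0.95 ± 0.21 (SE) for Adipoq.

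**Figure D3:**
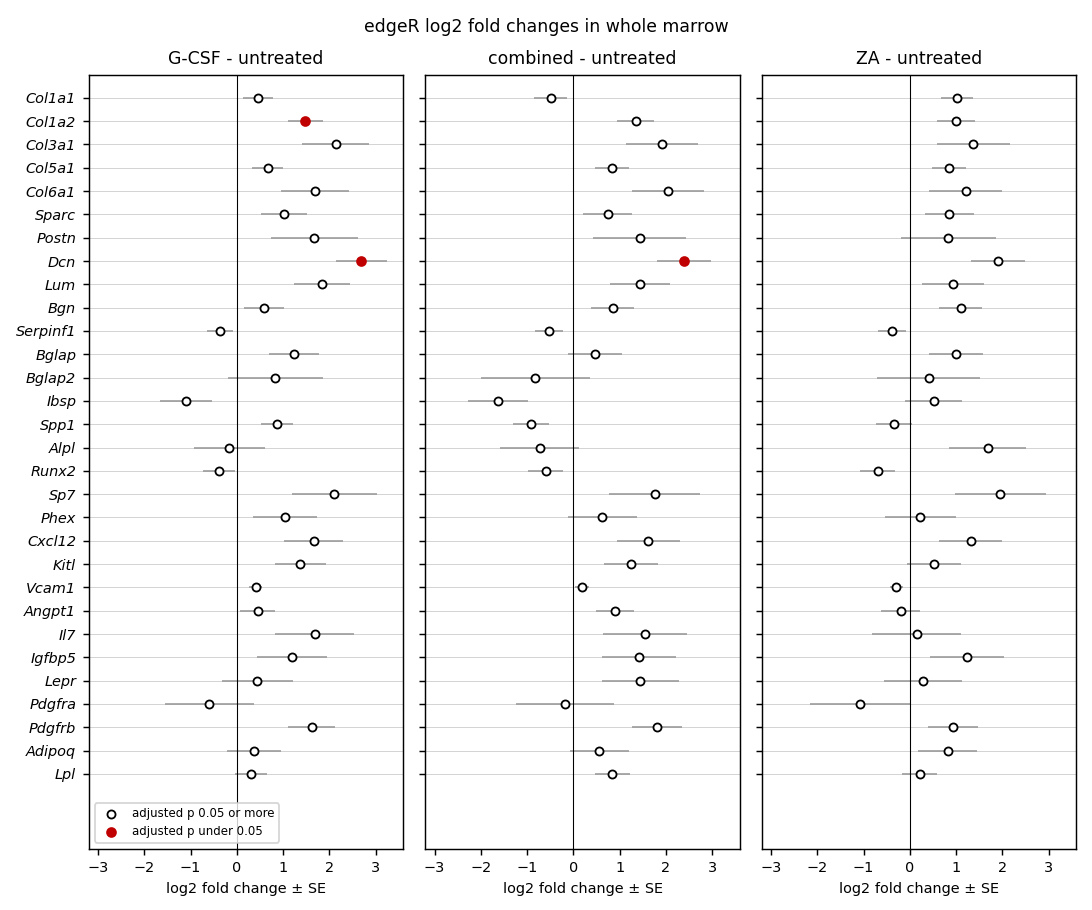
edgeR log2 fold changes with their SE (x axes) of the 30 genes (y axis) for G-CSF (n = 3), combined (n = 2) and ZA (n = 2) against the same 2 untreated libraries. Most points lie right of 0; Dcn and Col1a2 with G-CSF and Dcn with the combined treatment are the calls.

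Over the set, 2 of 30 genes rose and 0 fell with G-CSF against untreated, where 11.8% of all genes tested were called. With all groups in 1 fit, the count of calls was therefore not above the background. The median log2 change of the 30 genes was 0.95 against 0.01 for all genes tested, and 25 of the 30 values were positive. In 21 of the 30 genes, 70.0%, all 3 G-CSF libraries were above both untreated ones, against 23.7% of all genes tested. With the combined treatment 1 of 30 rose (7.72% of all genes called), the median was 0.85, and in 19 of 30, 63.3%, both libraries were above both untreated ones, against 27.6% of all genes. Both comparisons share the 2 untreated libraries.

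Between groups without and with G-CSF, 3 of 30 rose (Dcn, Vcam1 and Pdgfrb) and 1 fell (Ibsp), with 14.7% of all genes called. The median log2 change of the set in this comparison was 0.58, with 1.25 without ZA replicate 3 and 0.39 without ZA replicate 2. For G-CSF and the combined treatment against untreated the medians were 0.95 and 0.85 without ZA replicate 3. They were 1.03 and 0.85 without ZA replicate 2. In a fit of the untreated and G-CSF libraries alone 9 of 30 genes rose and 0 fell. Over all 14043 genes of that fit, 664 were called higher and 762 lower. On the log2(TPM + 1) scale the median of all genes moved to 0.52 for G-CSF and 0.79 for the combined treatment against untreated, and the medians of the 30 genes were then 0.93 and 1.04. On log2(TPM + 0.1) the medians of all genes were 0.79 and 1.11 and those of the 30 genes 1.52 and 1.91.

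ZA against untreated called 0 of 30 genes with edgeR. Among them 5 had an unadjusted p under 0.05, as did 1395 of all 14737 genes tested. DESeq2 called 0 of the set, and edgeR called 0.0339% of all genes. The median of the 30 genes was 0.84 with both ZA libraries, -0.54 without replicate 3 and 1.22 without replicate 2. The combined treatment against G-CSF called 0 of 30 with edgeR, with 0.00679% of all genes called and a median of -0.19. Of the 30 genes 2 had an unadjusted p under 0.05, as did 1530 of all genes tested, and DESeq2 called Spp1 lower. Against ZA edgeR called Col1a1 lower and no other of the 30, with 4.33% of all genes called; DESeq2 called Vcam1 higher and Alpl, Ibsp and Col1a1 lower. The median log2 difference of the combined treatment from ZA was 0.33 with both ZA libraries, 1.41 without replicate 3 and -0.24 without replicate 2. Cxcl12 differed by 2.15 ± 0.26 (SE) without ZA replicate 3, and Alpl by -3.24 ± 0.48 (SE) without ZA replicate 2. The interaction of ZA and G-CSF called 0 of 30 with edgeR, with 0.00679% of all genes called. Of the 30 genes 4 had an unadjusted p under 0.05, as did 1738 of all genes tested, and DESeq2 called Col1a1.

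Marker genes of other cells are given beside these counts, with 11.8% of all genes called for G-CSF, 7.72% for the combined treatment and 14.7% between groups without and with G-CSF. The 15 endothelial markers summed to 193 and 157 CPM in the untreated libraries, 158 and 333 in ZA replicates 2 and 3, 376, 456 and 452 with G-CSF, and 528 and 281 with the combined treatment, and 0 of 15 tested passed in G-CSF or combined marrow against untreated. The 12 megakaryocyte and platelet markers summed to 619 and 302 CPM in the untreated libraries, 237 and 1194 in ZA replicates 2 and 3, 1741, 1704 and 2237 with G-CSF, and 2328 and 1556 with the combined treatment, and 1 of 12 rose with G-CSF against untreated and 7 of 12 between groups without and with G-CSF. The 8 smooth muscle and pericyte markers summed to 31.5 and 29.9 CPM in the untreated libraries, 25.3 and 63.7 in ZA replicates 2 and 3, 76.98, 66.6 and 88.8 with G-CSF, and 96.5 and 75.7 with the combined treatment. In all of these lists ZA replicate 3 was above replicate 2 and the libraries given G-CSF were above the untreated ones.

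Skeletal muscle markers summed to 14.9 and 13.4 CPM in the untreated libraries, 27.3 and 17.9 in ZA replicates 2 and 3, 64.2, 50.9 and 38.8 with G-CSF, and 377 and 197 with the combined treatment. With G-CSF against untreated 6 of 13 tested rose, and 12 of 13 with the combined treatment; 5 and 6 of the 15 were at 0 in the untreated libraries. Macrophage markers were lower, 1083 and 907 CPM in the untreated libraries, 711 and 772 in ZA replicates 2 and 3, 699, 631 and 641 with G-CSF, and 605 and 632 with the combined treatment, with 5 of 13 falling in either comparison. The 12 chondrocyte markers summed to 4.08 and 2.94 CPM in the untreated libraries, 2.21 and 4.76 in ZA replicates 2 and 3, 4.72, 5.16 and 8.23 with G-CSF, and 6.41 and 5.71 with the combined treatment, led by Comp and Col2a1. Of these 12 genes 2 passed the filter and neither was called, and Acan had no count in 7 of 9 libraries. The part that vessel, platelet, muscle or cartilage RNA had in the changes of the 30 genes was not tested.

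Further genes of the same pathways, taken from lists of named genes, were read against the same 11.8% of all genes called with G-CSF. Of 25 tested fibroblast and matrix genes 2 rose with G-CSF, Loxl1, which cross-links elastin, by 2.81 ± 0.72 (SE; edgeR, adjusted p = 0.0355) and Pcolce, the procollagen proteinase enhancer, by 1.76 ± 0.47 (adjusted p = 0.0402), and the median of the list was 1.47. Of 22 marrow stromal genes 2 rose, Igfbp3 by 2.64 ± 0.56 (edgeR, adjusted p = 0.0163) and Cdh2, N-cadherin, by 2.26 ± 0.61 (adjusted p = 0.0429), with a median of 1.46. Of 16 osteoblast and osteocyte genes 1 rose, the collagenase Mmp13 by 2.34 ± 0.57 (edgeR, adjusted p = 0.0307), and 1 fell, the pyrophosphate exporter Ank by -0.83 ± 0.14 (adjusted p = 0.00709), with a median of -0.05. Of 6 adipocyte genes 1 fell, Acsl1, and of 15 partners of Runx2 and signals to stroma 1 fell, Runx1. With the combined treatment, where 7.72% of all genes were called, these lists had 0, 1, 0, 0 and 2 genes that rose and 0, 0, 1, 1 and 0 that fell.

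The sorted precursors carried little of the set. In run 1, precursors were compared with whole marrow over untreated, ZA and G-CSF libraries (5 against 3, treatment in the model); the 3 marrow libraries are replicate 2 of those groups in the whole marrow table and add no independent marrow sample. Of 25 genes tested 20 were lower and 2 higher in precursors, where 44.6% of all genes tested were called, 23.5% lower and 21.1% higher, and the median was -5.86 against 0.05 for all genes. Of the other lists, 17 of 18 fibroblast and matrix genes, 16 of 19 marrow stromal genes, 6 of 12 osteoblast and osteocyte genes and 3 of 4 adipocyte genes were lower in precursors.

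Cxcl12 measured 125, 94.03 and 414 CPM in untreated, ZA and G-CSF marrow of that run, and in precursors 0.978 CPM in the untreated library, 2.07 in the ZA library, 0.504, 0.760 and 0.360 with G-CSF, and 1.35, 1.03 and 2.48 with the combined treatment. All 8 precursor libraries were under all 3 marrow libraries, and the log2 difference was -7.83 ± 0.76 (SE; edgeR, adjusted p = 3.34e-04). Igfbp5 was -7.41 ± 0.71 (SE), Vcam1 -6.27 ± 0.40 (SE), Sparc -6.18 ± 0.64 (SE) and Col1a1 -5.41 ± 0.39 (SE) on the log2 scale, with adjusted p of 2.64e-04, 3.09e-05, 3.30e-04 and 5.29e-05 by edgeR. Bglap2, Mepe, Sost and Tnfrsf11b had no count in any of the 8 libraries, Lum and Sp7 had 1 count in all, and Dcn, Col3a1 and Tnfsf11 had 2.

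**Figure D4:**
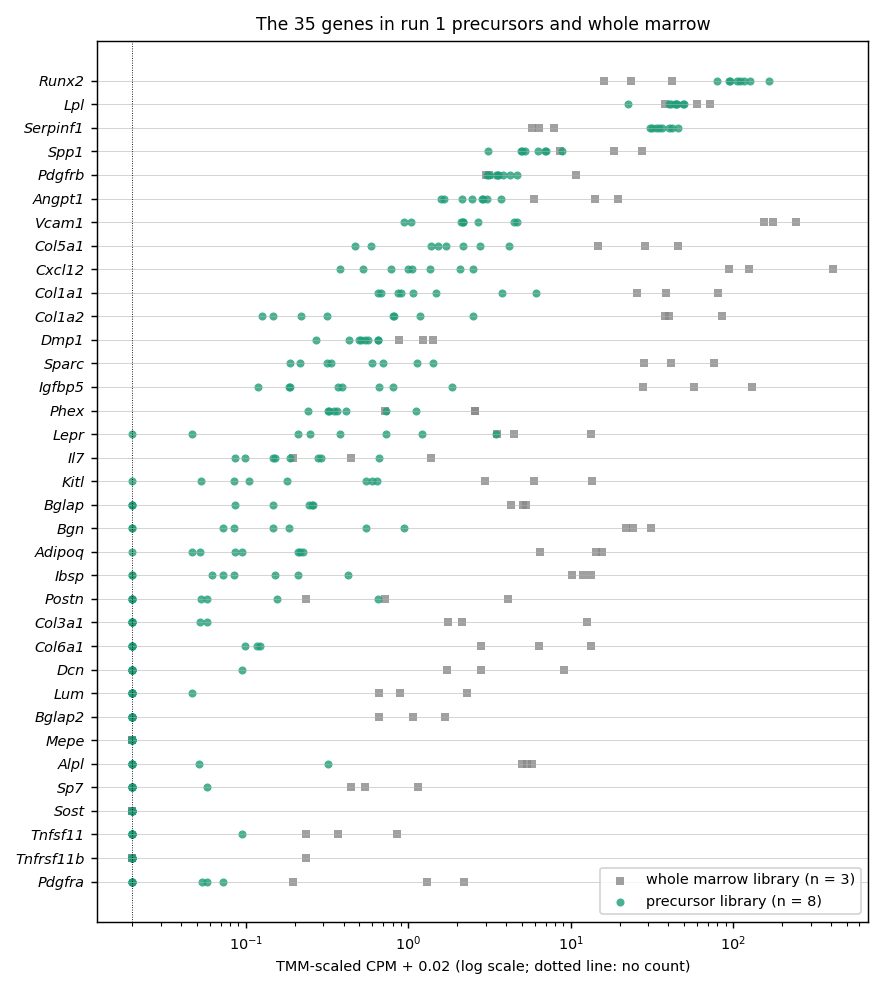
Level of the 35 genes (y axis, ordered by their median in precursors) in 8 precursor and 3 whole marrow libraries of run 1 (x axis, CPM + 0.02, log scale), 1 point per library with no error bars. Runx2 and Serpinf1 are the genes whose precursor points all lie right of the marrow points, Lpl and Pdgfrb overlap, and most others lie left.

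Runx2 and Serpinf1 were higher in precursors, and Lpl, Pdgfrb and Spp1 kept part of their marrow level or all of it. Runx2, whose promoter window with 3 hexamers is shown above, measured 41.9, 15.99 and 23.5 CPM in untreated, ZA and G-CSF marrow, and in precursors 111 CPM in the untreated library, 95.9 in the ZA library, 93.9, 105 and 79.98 with G-CSF, and 165, 116 and 127 with the combined treatment. Every precursor library was above every marrow library, by 1.97 ± 0.22 (SE; edgeR, adjusted p = 3.90e-04). The gene spans chr17:44495987-44814797, and Supt3 and 3 antisense transcripts lie on the opposite strand; Supt3 itself was at 10.4 to 13.8 CPM in precursors and 14.8 to 17.9 CPM in marrow, and the antisense transcripts at 2.34 CPM or less in precursors. Its partner Cbfb and the related Runx1 and Runx3, which act in blood cells, had medians of 245, 133 and 64.5 CPM over the 11 run 1 libraries.

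Serpinf1 measured 7.88, 5.74 and 6.35 CPM in the same marrow libraries, and in precursors 36.3 CPM in the untreated library, 40.1 in the ZA library, 33.5, 35.1 and 31.8 with G-CSF, and 45.9, 42.3 and 30.6 with the combined treatment. No precursor library overlapped marrow, and the difference was 2.45 ± 0.16 (SE; edgeR, adjusted p = 3.43e-05). Per length Serpinf1 was the highest of the 35 genes in precursors, with a median of 46.5 TPM (34.0 to 58.4), above Runx2 at 15.2 TPM (12.3 to 17.7) and Lpl at 6.46 TPM (3.64 to 8.36). Both calls held under all 16 alternatives run for this comparison.

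Lpl had a lowest, median and highest level of 22.6, 43.99 and 49.9 CPM in precursors against 37.9, 60.04 and 71.7 CPM in marrow, and the groups overlapped (-0.41 ± 0.17 (SE; edgeR, adjusted p = 0.0893)). Pdgfrb had 3.02, 3.55 and 4.63 CPM against 2.98, 3.13 and 10.7 CPM, also overlapping (-0.62 ± 0.46 (SE; edgeR, adjusted p = 0.314)). Spp1 had 3.08, 5.73 and 8.86 CPM against 8.52, 18.5 and 27.5 CPM, so that the highest precursor library overlapped the lowest marrow library, and was lower by -1.54 ± 0.28 (SE; edgeR, adjusted p = 0.00396), a call lost on both TPM scales and without the G-CSF marrow library. Of the others Angpt1, at 1.56, 2.63 and 3.68 CPM, and Col5a1, at 0.448, 1.59 and 4.14 CPM, were also detected in every precursor library. So were Vcam1, Col1a1, Cxcl12, Phex, Dmp1, Sparc, Igfbp5, Col1a2 and Il7, with lowest counts from 28 for Vcam1 down to 2 for Il7. Dmp1 had 0.252, 0.508 and 0.633 CPM in precursors against 0.852, 1.21 and 1.39 CPM in marrow.

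Within precursors the treatments were compared over 18 genes that passed the filter. Combined against G-CSF called 0 of 18 with edgeR, 3 had an unadjusted p under 0.05 and DESeq2 called 0; over all 17187 genes edgeR called 0 (0%), 1236 had an unadjusted p under 0.05, and DESeq2 called 37 higher and 25 lower. The 3 genes were Runx2, 0.55 ± 0.15 (SE; edgeR, adjusted p = 0.649), Cxcl12, 1.57 ± 0.50 (SE; edgeR, adjusted p = 0.661), and Col1a1, 2.02 ± 0.73 (SE; edgeR, adjusted p = 0.663). For Runx2 and Cxcl12 all 3 combined libraries were above all 3 G-CSF libraries. Small RNAs took 43.7 and 33.9% of TPM in combined replicates 1 and 3. In the other run 1 precursor libraries they took 18.9 to 29.0%, and any part of this in the values was not tested. Col1a1 was higher in combined replicates 1 and 3, at 3.78 and 6.12 CPM, and not in replicate 2, at 0.632 CPM, and the other 5 precursor libraries lay between 0.655 and 1.47 CPM. With against without G-CSF called 0 of 18 with edgeR (0 at an unadjusted p under 0.05; DESeq2 called 0; 0% of all genes called), and the side without G-CSF holds 1 library per treatment, taken to vary like the other groups.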

How the data were processed

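Whole marrow and sorted marrow cells were measured by RNA-seq on an Illumina instrument; whether strand was kept is not given in the labels' protocols. Salmon, without a version, DESeq2 1.16.1 and build mm10 are named in the submitters' processing notes. The authors deposited estimated counts and TPM per Ensembl gene; the counts are not whole numbers and were rounded here. Identifiers were named through GENCODE vM21, which held 99.1% of them in either table.

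edgeR 4.0.16 (R 4.3.3) was run with filterByExpr (minimum count 10, total 15), TMM, a robust quasi-likelihood fit and Benjamini-Hochberg adjustment over all genes tested (14737 in marrow, 17187 in run 1 precursors, 16185 for precursors against marrow), with all groups of a table in 1 fit. The scripts were tested on simulated data. The alternatives were RLE scaling, DESeq2 1.42.0, no filter, a minimum count of 30, limma 3.58.1 on log2(TPM + 1) and log2(TPM + 0.1), protein-coding genes only, a replicate block, leaving out each library, and the groups compared alone. P-values measure the spread between these libraries, which may be technical, since the labels call them biological replicates without naming animals. Run 2 of the precursor table was not used here, and the labels give no sequencing batch for whole marrow.

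The genes and lists were chosen with earlier results of these data known. All 35 were accounted for. Those kept by the marrow filter were described by library, or by range for some, such as Postn, Phex, Il7 and Col5a1. Changes in marrow were printed where called, except for Dcn between groups without and with G-CSF, and for the leading genes of each role. For precursors against marrow only some of the called changes were printed, and from other lists up to 4 called genes. Members with printed changes beyond that rule, such as Spp1, Col3a1, Lum, Serpinf1, Angpt1 and Lpl, and Ctsk, were singled out after their values were seen. Promoter windows came from a RefSeq table (GRCm38.p6). Transcripts of the osteocalcin genes were aligned end to end with free end gaps.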

Additional observations from a re-analysis of the deposited data

How the results depend on the processing

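Counts of genes called in marrow are out of 30, but out of 35 with no filter, 29 to 32 with DESeq2, 25 with a minimum count of 30, 26 to 30 with the groups alone, and 30 or 31 without 1 library. Of these counts, that for G-CSF against untreated was 2 and became 11 with no filter on low counts, 13 on log2(TPM + 1), 16 on log2(TPM + 0.1), 5 with DESeq2, 9 with the 2 groups alone and 1 with the replicate block, and ran from 0 to 9 as 1 library was left out. The count for the combined treatment against untreated was 1 and became 14 with no filter, 18 on either TPM scale, 4 with DESeq2, 5 with the 2 groups alone and 0 with the replicate block, and ran from 0 to 8 without 1 library. For combined against ZA the count of 1 became 5 with no filter, 4 with DESeq2 and 0 on both TPM scales and with the replicate block, and ran from 0 to 7 without 1 library. For libraries with against without G-CSF the count of 4 became 16 with no filter, 18 on either TPM scale, 8 with DESeq2 and 1 with the replicate block, and ran from 0 to 13. With no filter, ZA against untreated gave 8, combined against G-CSF 3 and the interaction 7, all from 0. Over all 28465 genes these fits called 282 higher and 352 lower, 295 and 262, and 451 and 295. DESeq2 gave 1 for combined against G-CSF and 1 for the interaction. Over all genes it called 87 higher and 96 lower of 14084, and 167 and 78 of 14617. The count for precursors against marrow was 22 and ran from 19 to 26 without 1 library. Sparc, combined against ZA, changed sign without ZA replicate 3, from -0.11 to 1.29, and was -0.81 without ZA replicate 2. RLE scaling, protein-coding genes only and a minimum count of 30 changed no count by over 1.5 times. Over all 14737 genes, G-CSF against untreated called 727 higher and 1019 lower with the default settings. It called 1432 and 1774 of 28465 with no filter, and 986 and 1415 of 16213 with DESeq2. The combined treatment against untreated called 1176 and 1364 with no filter, 711 and 1033 of 15149 with DESeq2, and 365 and 383 of 13314 with the 2 groups alone. Combined against ZA called 708 and 879 with no filter, and 417 and 598 of 14617 with DESeq2. On log2(TPM + 1) G-CSF against untreated called 2664 higher and 184 lower of 14737, and the combined treatment 5632 and 163. On log2(TPM + 0.1) G-CSF called 2958 and 196, and the combined treatment 5384 and 165. Between groups without and with G-CSF, 1566 genes were higher and 1796 lower with no filter, and 1153 and 1471 of 17278 with DESeq2. For that comparison log2(TPM + 1) gave 5956 and 310, and log2(TPM + 0.1) gave 5676 and 302. The cause of these shifts was not tested, except that a fit without a library holds fewer samples. Same-numbered marrow libraries of different groups had deviations that correlated between -0.04 and 0.11, and differently numbered ones between -0.11 and 0.11. In a group of 2 libraries the deviations mirror each other, so these values cannot tell whether the numbers pair the samples. The replicate block is therefore given as an alternative. With it Dcn with G-CSF and Ibsp were called, and Col1a2, Col1a1, Vcam1, Pdgfrb and Dcn in its other comparisons were not. The depth of marrow leaves genes near 1 CPM with few counts, and 2 to 3 libraries a group limit every marrow test.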
